A study of Mus musculus with 8 samples.

Results

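The genes that encode the proteins of the cytosolic ribosome were followed in differentiating mouse adipocyte cultures in which miR-182, miR-203 or miR-708 was inhibited. The members were the genes of the deposited tables whose name begins with Rpl or Rps and a digit, together with Rplp0, Rplp1, Rplp2 and Rpsa, without names marked as pseudogenes (-ps) and without the Rps6k kinases. This rule found 87 of the 18933 genes. Of these, 77 are the principal genes of the ribosome, 46 of the large subunit and 31 of the small one. The other 10 are the paralogues Rpl3l, Rpl7l1, Rpl22l1, Rpl36al, Rpl39l, Rps27l and Rps4y2, the genes Rps12l2 and Rps3a3, which the GENCODE M21 annotation types as processed pseudogenes, and Rps19bp1, which encodes a binding partner of Rps19 and no ribosomal protein. Rps4y2 is named Rps4l in GENCODE M21 and typed as a transcribed processed pseudogene. Fau and Gnb2l1 (also called Rack1) encode ribosomal proteins whose names do not match the rule.

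The 8 samples comprised 2 cultures with the miR-182 inhibitor, 2 with the miR-203 inhibitor, 2 with the miR-708 inhibitor and 2 control transfections. All were primary cultures of the stromal vascular fraction, the cells of digested fat that include adipocyte precursors, and all were transfected shortly before confluence, the inhibitors being locked nucleic acids at 100 nM. Every group then received the same differentiation medium (insulin, dexamethasone, rosiglitazone and the phosphodiesterase inhibitor IBMX), and RNA was taken at day 4. The labels give neither the depot nor the strain, genotype, age or sex of the animals, nor what the control cultures received, nor whether replicates stem from different animals, and the p-values may therefore reflect only technical spread. The series title speaks of brown adipocytes.

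The tables hold 1 FPKM value per group (fragments per kilobase and per unit of library size), read here as the authors' pool of both replicates. No spread between replicates can be given, and sequencing depth is unknown. The verbs rose and fell are used only of genes for which the authors' deposited table gives a q-value, their Cuffdiff p-value adjusted for multiple tests, below 0.05. The control values were identical in the 3 tables, so the 3 comparisons share their control.

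A ribosome has a small subunit, which reads the messenger RNA, and a large subunit, which joins the amino acids. Most of their proteins are needed in equal numbers, and they are assembled with ribosomal RNA in the nucleolus. The messenger RNAs of ribosomal proteins are among the most abundant of any cell, and they begin with a run of pyrimidines, the terminal oligopyrimidine (TOP) tract, through which mTORC1 and the RNA-binding protein Larp1 adjust their translation. Several of their genes carry small nucleolar RNAs (snoRNAs) in their introns.

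Runs of pyrimidines were looked for at the annotated start sites. Of the members, 64 had an entry in the RefSeq promoter table (build GRCm38.p6), with 76 start sites. A run of at least 8 letters that are C or T, on the coding strand within 30 bases on either side of the start, was present at 48.7% of these starts and at 22.9% of the 32851 starts of all genes. A run that covers the first transcribed base, as a TOP tract would, was present at 22.4% of the members' starts and 3.86% of all starts. The windows printed here run from 15 bases before the start through the first 15 bases of the transcript, in coding-strand letters, with the runs in capitals. They are shown because these members had, among the 25 with a run in the window, the highest (first 3) and lowest (last 3) log2 ratio to control averaged over the comparisons.
Rps27: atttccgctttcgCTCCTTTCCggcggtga
Rpl31: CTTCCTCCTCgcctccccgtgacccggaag
Rpl19: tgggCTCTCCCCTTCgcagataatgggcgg
Rpl7a: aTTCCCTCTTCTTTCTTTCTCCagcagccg
Rps6: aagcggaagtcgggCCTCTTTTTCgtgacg
Rpl34: cgCCTTCCCTgacgtacttcctgtccggcg
In GRCm38.p6 the windows lie at chr3:90213634-90213663 (Rps27, minus strand), chr1:39367836-39367865 (Rpl31, plus), chr11:98026909-98026938 (Rpl19, plus), chr2:26910792-26910821 (Rpl7a, plus), chr4:86857353-86857382 (Rps6, minus) and chr3:130730384-130730413 (Rpl34, minus). The runs of Rps27, Rpl7a and Rps6 cover the first transcribed base. Those of Rpl31, Rpl19 and Rpl34 lie wholly before the RefSeq start used for the window. In GENCODE M21 the genes Rpl31 and Rpl19 begin at 39367842 and 98026710. By that annotation the Rpl31 run lies partly and the Rpl19 run wholly within the gene. Among genes that carry a run in the window, the average log2 ratio spanned 0.45 (Rps27) to -0.07 (Rpl34).

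Across the whole promoter entries, 250 bases before the start to 50 after it and on both strands, CCGGAAG, the core recognised by ETS family factors, was found at 35.5% of the members' starts and 8.86% of all starts. GGGCGG, the GC box bound by Sp1, was found at 60.5% of the members' starts and 35.7% of all starts. AAGATGG, which resembles the site of YY1, was found at 15.8% of the members' starts and 6.34% of all starts, and TATAAA, the TATA box, at 9.21% of the members' starts and 13.6% of all starts. None of these strings contains another of them. The 35 members with a run near a start had median log2 ratios of 0.23, 0.17 and 0.27 with the inhibitors of miR-182, miR-203 and miR-708, and the 28 measured members with an entry but no run had 0.30, 0.20 and 0.29.

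In the control cultures, the 77 principal genes spanned 58.4 FPKM (Rpl29) to 3628 FPKM (Rpl13a), with a median of 327 FPKM. Rpl13a, a protein of the large subunit that is also part of a complex that silences inflammatory messages, had the highest level in every group, with 4265, 4136 and 3813 FPKM under the inhibitors of miR-182, miR-203 and miR-708 and 3628 FPKM in control. It was not called in any comparison. The acidic stalk proteins Rplp1 and Rplp2, which recruit elongation factors, followed it, with means over the 4 groups of 1942 and 1659 FPKM. In the small subunit, Rps15a, Rps9 and Rps27 had the highest means, at 1477, 1138 and 1016 FPKM. All members together held 42993, 41183 and 43042 FPKM in the cultures with inhibitors of miR-182, miR-203 and miR-708, against 35829 FPKM in control. As a share of all FPKM in the tables this was 3.41%, 2.93% and 3.17%, against 2.94% in control, so that the sum was higher with every inhibitor while the share with the miR-203 inhibitor was close to that of control. Messenger levels thus differed widely among the proteins of the same particle, although FPKM of short transcripts and of genes with near-identical copies are uncertain.

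**Figure D1:**
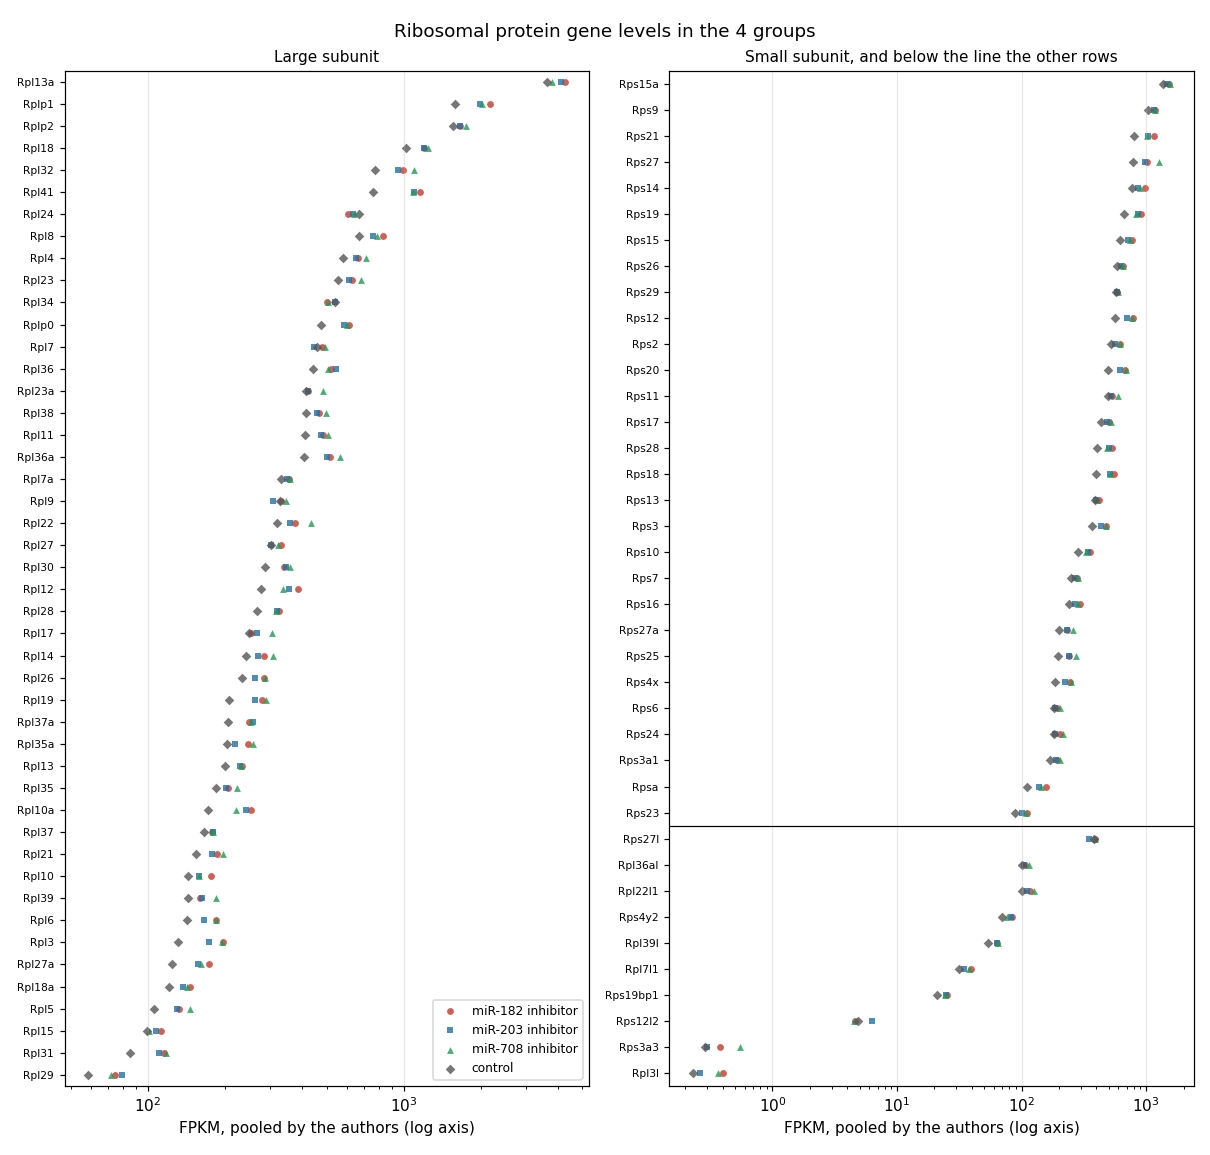
FPKM of 85 of the 87 members in the 4 groups on a log axis, without the genes not reported here, 1 row per gene ordered by its control level, with the large subunit on the left and the small subunit and the other 10 genes on the right. Each point is 1 value pooled by the authors, so no error bars can be drawn; the levels run from 0.231 FPKM (Rpl3l, control) to 4265 FPKM (Rpl13a, miR-182 inhibitor).

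With the miR-182 inhibitor, 18 of 85 tested members (21.2%) rose in the authors' deposited table and 0 fell; of all 14391 tested genes, 8.4% were higher and 6.23% lower. With the miR-708 inhibitor, 19 of 86 rose and 0 fell (22.1%), against 4.51% of all tested genes higher and 3.05% lower. With the miR-203 inhibitor, 6 of 85 rose and 0 fell (7.06%), against 4.72% higher and 2.51% lower among all tested genes, a share much nearer to its background. At an unadjusted p below 0.05 in the authors' deposited tables, 39, 27 and 48 members were higher with the inhibitors of miR-182, miR-203 and miR-708 and 0 lower, against 14.3%, 9.84% and 9.97% of all genes higher. At q below 0.01 the counts were 11 of 85, 2 of 85 and 11 of 86, against 6.28%, 2.87% and 2.89% of all tested genes. The members' share with the miR-203 inhibitor then lay below that of all tested genes. Without replicate values, whether the inhibitors differed from each other was not tested.

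The differences were small and shared by nearly all members. On the scale of log2((inhibitor FPKM + 1)/(control FPKM + 1)), with genes tested and at 1 FPKM or more in either group, the 85 measured members had a median of 0.24 with the miR-182 inhibitor (interquartile range 0.16 to 0.36), against -0.014 for all genes. With the miR-708 inhibitor the median was 0.29 (0.19 to 0.36), against -0.019 for all genes. With the miR-203 inhibitor it was 0.19 (0.12 to 0.30), against -0.012 for all genes, but it stood at -0.019 when each column was rescaled to the same FPKM sum. In the values as deposited, 81 (95.3%), 80 (94.1%) and 82 (96.5%) measured members stood above 0 with the inhibitors of miR-182, miR-203 and miR-708. Among all genes these shares were 48.1%, 47.9% and 46.7%. Under the common FPKM sum the members' counts were 76, 40 and 68 of 85, with medians of 0.19, -0.019 and 0.13. The medians correspond to ratios of 1.18, 1.14 and 1.22 in the values as deposited. The 1101 other genes at 100 FPKM or more in control had medians of -0.092, -0.026 and -0.026. They were chosen by their control level, the denominator of the ratio, which favours lower ratios. Their levels were not matched to those of the members, so no conclusion on level is drawn from them.

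**Figure D2:**
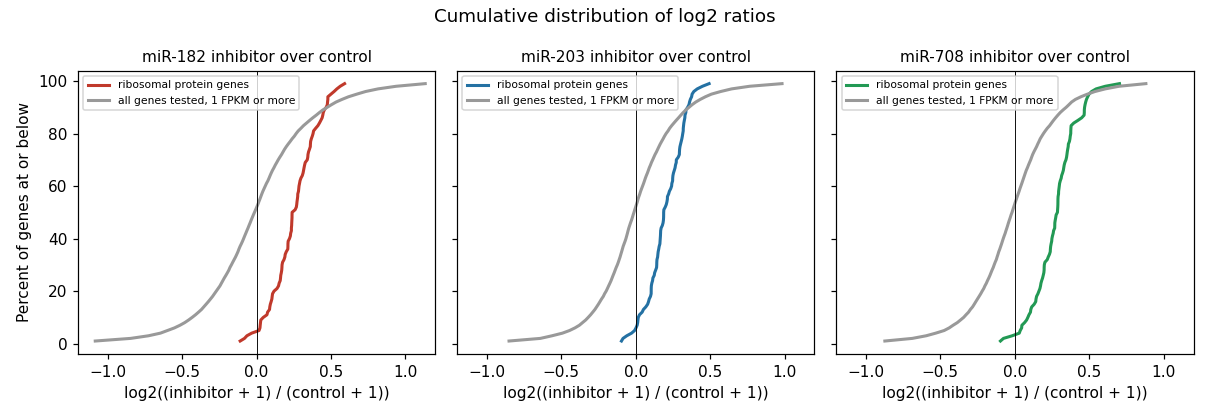
Cumulative share of genes (percent) against the log2 ratio of each inhibitor to control, from the 1st to the 99th percentile, for the 85 measured members (coloured) and all tested genes at 1 FPKM or more (grey). In the values as deposited the members' curves are steeper and cross 50% at 0.24, 0.19 and 0.29, where the grey curves cross near 0. Under a common FPKM sum the members' medians are 0.19, -0.019 and 0.13.

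How the columns are scaled sets the size of these values. The columns summed to 1259020, 1405880 and 1357330 FPKM with the inhibitors of miR-182, miR-203 and miR-708 and to 1217430 FPKM in control. Mitochondrial transfer RNAs held 37.9%, 33.1% and 39.7% of these sums, against 33.3% in control, and the short RNA Mir5105 alone held 61714, 178253 and 62653 FPKM, against 66947 FPKM in control. Rescaling to a common sum moved the median of all genes to -0.055, -0.19 and -0.15, and that of the members to 0.19, -0.019 and 0.13. Relative to the medians of all genes, the members' medians were 0.24, 0.17 and 0.28 higher. A rescaling multiplies every gene of a column by the same factor. Apart from the pseudocount, this gap was therefore fixed in advance. Rescaling without the 50 genes of highest level gave members' medians of 0.27, 0.18 and 0.29, and rescaling by the upper quartile gave 0.27, 0.21 and 0.32.

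**Figure D3:**
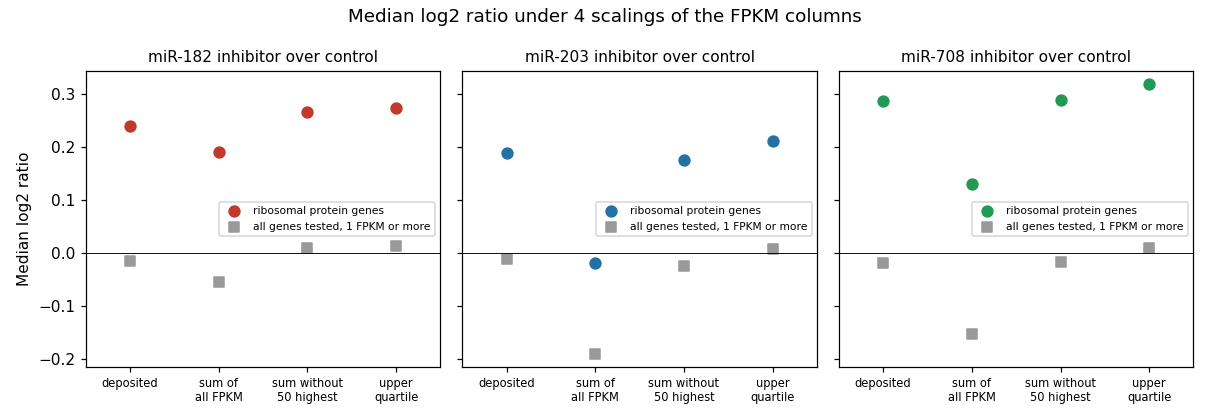
Median log2 ratio of the 85 measured members (coloured circles) and of all tested genes at 1 FPKM or more (grey squares) under 4 scalings of the FPKM columns, 1 panel per inhibitor. The members lie above all genes under each scaling, an outcome that a common factor per column could hardly change. With the miR-203 inhibitor both medians lie below 0 under the common FPKM sum (members -0.019).

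Rpl3, Rpl31 and Rpl41 of the large subunit rose in each of the 3 comparisons, all of them against the same control. Rpl3 (chr15:80077791-80091868, minus strand, GENCODE M21 on GRCm38), which lies close to the peptidyl transferase centre, had 196.9, 172 and 195 FPKM with the inhibitors of miR-182, miR-203 and miR-708, against 131 FPKM in control. Its ratios in the authors' deposited tables were 1.51, 1.32 and 1.49 (q = 0.00176, 0.00928 and 0.00176). Rpl41 (chr10:128548114-128549305, minus strand), the shortest protein of the ribosome, had 1162, 1101 and 1092 FPKM, against 759 FPKM in control. All 3 of its q-values were 0.00176, the smallest the authors' deposited tables hold. Rpl31 (chr1:39367842-39371911, plus strand), a protein at the rim of the exit tunnel whose start window is printed above, had 116, 110 and 118 FPKM, against 84.9 FPKM in control (q = 0.00819, 0.0375 and 0.00591 in the authors' deposited tables).

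Other large-subunit genes rose with 1 or 2 inhibitors. Rpl10a (chr17:28328471-28331033, plus strand), of the stalk near the site where spent transfer RNA leaves, had 253, 241 and 220 FPKM with the inhibitors of miR-182, miR-203 and miR-708, against 172 FPKM in control, and rose with those of miR-182 (q = 0.00327) and miR-203 (q = 0.0310) in the authors' deposited tables. Rpl29, the lowest principal gene, had 74.6, 79.2 and 71.9 FPKM, against 58.4 FPKM in control, and rose with the miR-203 inhibitor (q = 0.0172, authors' deposited table). Rpl19, Rpl32 and Rpl6 rose with the inhibitors of miR-182 and miR-708. Rpl32 had 994, 948 and 1094 FPKM, against 773 FPKM in control, and Rpl19 had 279, 262 and 288 FPKM, against 207 FPKM in control. Rpl19 missed the threshold with the miR-203 inhibitor (q = 0.0656, authors' deposited table). In both genes the 3 inhibitor groups lay closer to each other than to control.

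Rpl14, Rpl21, Rpl22, Rpl36a and Rpl39 rose with the miR-708 inhibitor, with log2 ratios between 0.35 and 0.47. Rpl22, which is known for its role in lymphocyte development, had 376, 359 and 435 FPKM with the inhibitors of miR-182, miR-203 and miR-708, against 320 FPKM in control. Rpl36a had 515, 502 and 561 FPKM, against 406 FPKM in control (q = 0.0613, 0.123 and 0.00591 in the authors' deposited tables). Rpl39, which lines the exit tunnel, had 159.5, 162 and 185 FPKM, against 143 FPKM in control. For these genes the highest of the 4 values was that of the miR-708 inhibitor.

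Of the 3 stalk proteins, Rplp1 rose with the miR-182 inhibitor (q = 0.00176, authors' deposited table), with 2169, 1990 and 2019 FPKM under the inhibitors of miR-182, miR-203 and miR-708, against 1590 FPKM in control. Rplp0, which anchors the stalk to the ribosome, had 613, 584 and 598 FPKM, against 477 FPKM in control, and was not called (q = 0.0959, 0.241 and 0.167 in the authors' deposited tables). Rplp2, which pairs with Rplp1 in the stalk, had 1661, 1661 and 1751 FPKM, against 1563 FPKM in control. Its log2 ratios of 0.09, 0.09 and 0.16 were well below those of Rplp1, at 0.45, 0.32 and 0.34.

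In the small subunit, 10, 1 and 8 of 31 genes rose with the inhibitors of miR-182, miR-203 and miR-708, against 8, 5 and 11 of 46 in the large subunit. As shares these are 32.3%, 3.23% and 25.8% of the small subunit and 17.4%, 10.9% and 23.9% of the large one. Of all tested genes, 8.4%, 4.72% and 4.51% were called higher. The small-subunit share with the miR-203 inhibitor rests on 1 gene and lies near that of all genes. All 31 small-subunit genes stood above 0 in that comparison in the values as deposited. The medians of the small subunit were 0.30, 0.21 and 0.28, and those of the large subunit 0.24, 0.19 and 0.29 in the values as deposited. Under a common FPKM sum the medians over both subunits and the other genes were 0.19, -0.019 and 0.13. The difference between the subunits was not tested. Rps21 rose with the inhibitors of miR-182 (q = 0.00176) and miR-203 (q = 0.0422) in the authors' deposited tables, with 1158, 1044 and 1022 FPKM under the inhibitors of miR-182, miR-203 and miR-708, against 802 FPKM in control. It was the 1 small-subunit gene called with the miR-203 inhibitor.

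Rps12, Rps20, Rps27, Rps4x and Rpsa rose with the inhibitors of both miR-182 and miR-708. Rps27 (chr3:90212522-90213651, minus strand), a zinc-finger protein, had 1024, 973 and 1276 FPKM with the inhibitors of miR-182, miR-203 and miR-708, against 792 FPKM in control (ratios of 1.29, 1.23 and 1.61, q = 0.0395, 0.150 and 0.00176 in the authors' deposited tables). Rps12, of the head of the small subunit, had 780, 704 and 772 FPKM, against 559 FPKM in control. Rpsa, which is also known as a laminin-binding protein, had 158, 139 and 144 FPKM, against 111 FPKM in control. Rps20, which is found in the head of the subunit as well, had 674, 612 and 685 FPKM, against 491 FPKM in control. Rps4x, encoded on the X chromosome, had 247, 225 and 249 FPKM, against 187 FPKM in control. In each of these 5 genes the 3 inhibitor values lay above control and the miR-203 value was the lowest of the 3.

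Rps15, Rps18 and Rps28 rose with the miR-182 inhibitor and did not pass the threshold with the other two; whether the comparisons differ was not tested. Rps18 had 553, 509 and 510 FPKM with the inhibitors of miR-182, miR-203 and miR-708, against 397 FPKM in control (q = 0.00928, 0.0952 and 0.0891 in the authors' deposited tables). Rps28, which sits near the exit of the messenger RNA channel, had 538, 503 and 488 FPKM, against 403 FPKM in control. Rps15 stood just inside the threshold (q = 0.0499546, authors' deposited table), and Rps19, a gene mutated in Diamond-Blackfan anaemia, just outside it (q = 0.0571), with 909 FPKM with the miR-182 inhibitor and 670 FPKM in control. With the miR-708 inhibitor, Rpl14 was the last member inside (q = 0.0467) and Rps3, of the entry of the messenger RNA channel, the first outside (q = 0.0618).

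Rps25 and Rps27a rose with the miR-708 inhibitor. Rps25, which some viral messages need for translation, had 242, 242 and 274 FPKM with the inhibitors of miR-182, miR-203 and miR-708, against 195 FPKM in control (q = 0.136, 0.137 and 0.00176 in the authors' deposited tables). Rps27a, made as a fusion to ubiquitin, had 231, 231 and 259 FPKM, against 199.7 FPKM in control.

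**Figure D4:**
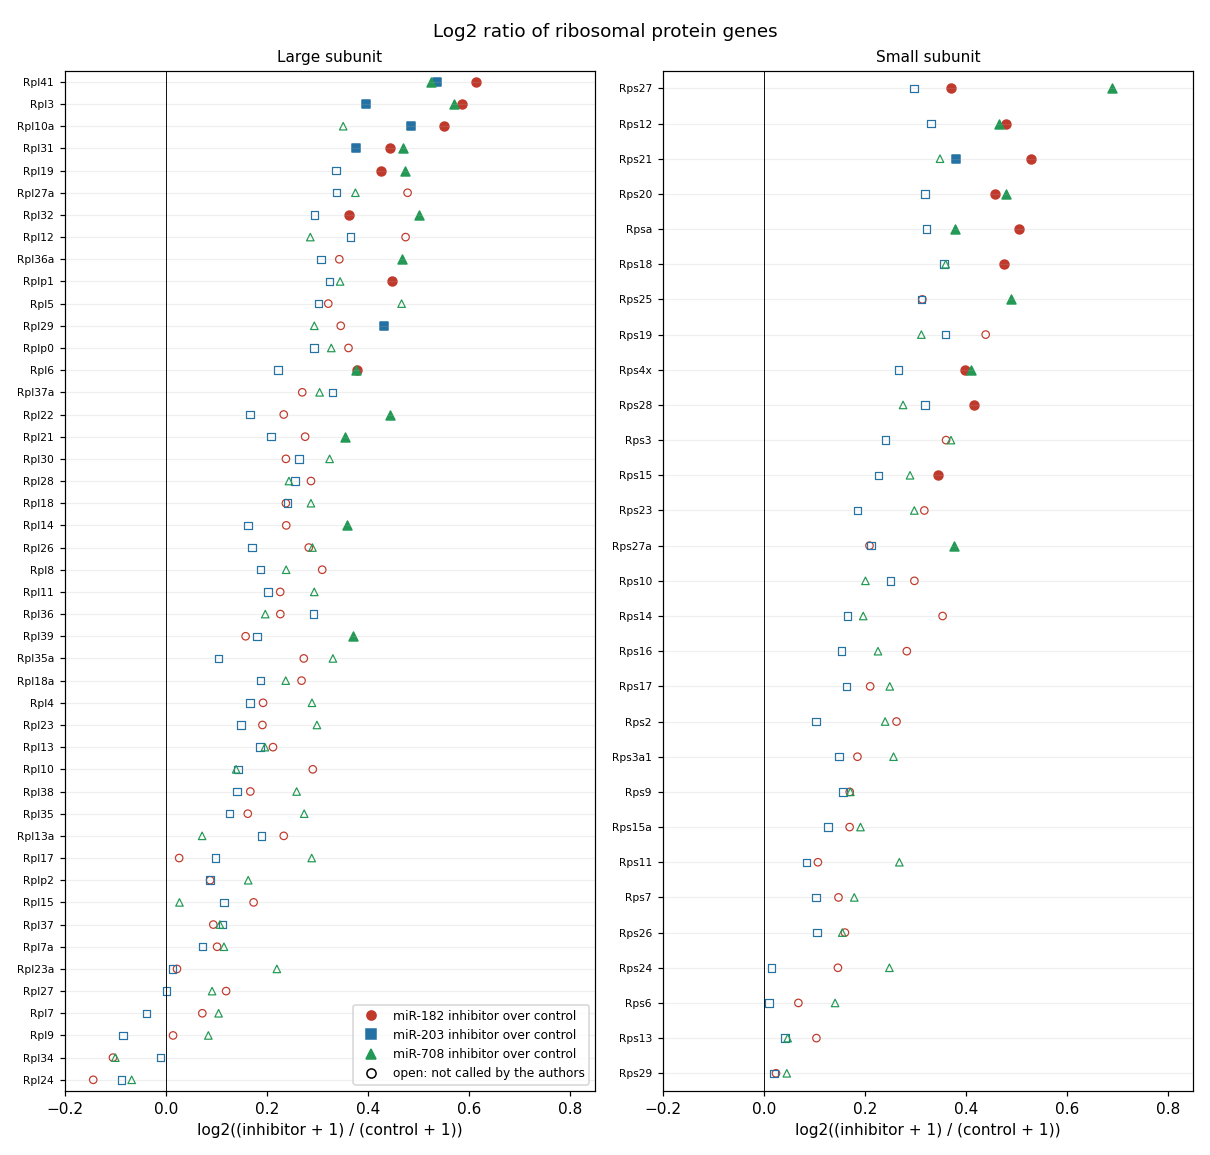
Log2 ratio of the principal genes reported by name with the inhibitors of miR-182 (circles), miR-203 (squares) and miR-708 (triangles) over control, in the values as deposited, ordered by the mean of the 3 within each subunit. Filled symbols are genes with q below 0.05 in the authors' deposited table. Rpl41 and Rps27 lead their subunits. The entries named Rpl24 (whose ID is that of Zbtb11 in GENCODE M21) and Rpl34 lie below 0 in each comparison. Under a common FPKM sum the medians over the 85 measured members are 0.19, -0.019 and 0.13.

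A few members stood at or below control. Rpl34 (chr3:130726831-130730398, minus strand) had 503, 537 and 504 FPKM with the inhibitors of miR-182, miR-203 and miR-708, against 541 FPKM in control. The entry named Rpl24 had 607, 631 and 640 FPKM, against 671 FPKM in control (log2 ratios of -0.14, -0.09 and -0.07). Its Ensembl ID belongs to the neighbouring gene Zbtb11 in GENCODE M21, and its locus in the tables is shared with another gene, so its values cannot be assigned to the ribosomal protein gene with certainty. Neither entry was called in the authors' deposited tables. Rps29 had 582, 580 and 591 FPKM, against 572 FPKM in control, and Rpl9 had 330, 308 and 346 FPKM, against 327 FPKM in control.

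Rps6, Rpl5 and Rpl11 were not called. Rps6, the substrate of the S6 kinases downstream of mTORC1, had 192, 185 and 202 FPKM with the inhibitors of miR-182, miR-203 and miR-708, against 183 FPKM in control. Rpl5 and Rpl11, which with 5S ribosomal RNA bind Mdm2 and so link ribosome assembly to p53, had log2 ratios of 0.32, 0.30 and 0.47 (Rpl5) and of 0.23, 0.20 and 0.29 (Rpl11). Rpl5 had 132, 130 and 146 FPKM, against 105 FPKM in control, a ratio of 1.39 with the miR-708 inhibitor that came with q = 0.298 in the authors' deposited table. It shares its locus with 3 other genes in the tables.

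No paralogue was called. Rps27l, a paralogue of Rps27 known as a target of p53, had 389.5, 347 and 391 FPKM with the inhibitors of miR-182, miR-203 and miR-708, against 382 FPKM in control, while Rps27 had 1276 FPKM with the miR-708 inhibitor, against 792 FPKM in control. Rps27l made up 27.6%, 26.3% and 23.4% of the FPKM of the pair, against 32.5% in control. Rpl22l1 made up 23.6%, 23.6% and 22.6% of the pair with Rpl22, against 23.9% in control, and Rpl39l 28.5%, 28.3% and 26.0% of the pair with Rpl39, against 27.3% in control. Rpl36al made up 17.2%, 17.2% and 16.9% of the pair with Rpl36a, against 19.9% in control, and Rpl7l1 7.59%, 7.20% and 7.15% of the pair with Rpl7, against 6.40% in control. Rpl3l, the form of heart and skeletal muscle, made up 0.204%, 0.150% and 0.189% of the pair with Rpl3, against 0.176% in control, at 0.402, 0.260 and 0.368 FPKM, against 0.231 FPKM in control. Rps4y2 made up 25.5%, 26.9% and 23.7% of the pair with Rps4x, against 27.1% in control. Reads from near-identical copies cannot be assigned with certainty, and 111 pseudogene entries of this family were left out by the rule, 18 of them at 1 FPKM or more in control.

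Of the 87 members, 37 share a locus in the tables with other genes and 22 hold 34 snoRNA entries. Without the members that share a locus, 9, 4 and 9 of 49 rose with the inhibitors of miR-182, miR-203 and miR-708 in the authors' deposited tables, beside 8.4%, 4.72% and 4.51% of all tested genes. The 22 with a snoRNA inside had medians of 0.25, 0.19 and 0.28 with the inhibitors of miR-182, miR-203 and miR-708, and the 63 other measured members 0.24, 0.20 and 0.29. Several of the 34 snoRNA entries, such as Snord33 and Snora64, were not tested in any comparison. None of the tested ones had a q-value below 0.05 in the authors' deposited tables. Among all tested genes, 8.4%, 4.72% and 4.51% were called higher and 6.23%, 2.51% and 3.05% lower. The absence of calls does not show that snoRNA levels were unchanged. The members lie on 19 chromosomes, 14 of them on chromosome 7 and 4 on X.

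The microRNAs themselves bind messenger RNAs mainly through their seed, bases 2 to 8. The labels do not say which arm of each hairpin the inhibitors bind; the arms shown are those usually taken as the guide strand, from RefSeq (GRCm38.p6), with the seed in capitals.
mmu-miR-182-5p: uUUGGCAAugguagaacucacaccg
mmu-miR-203-3p: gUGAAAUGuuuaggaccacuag
mmu-miR-708-5p: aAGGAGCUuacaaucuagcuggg
The 3 seeds differ from each other. The complementary 7-base strings, TTGCCAA for miR-182, CATTTCA for miR-203 and AGCTCCT for miR-708, were searched in the 3′ UTRs of 1 transcript per gene (GENCODE M21), where the members' UTRs had a median of 87 bases, against 928 bases for all genes.

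Matches were few among the members. The miR-182 string was present in 3 of 83 members with a UTR (3.61%), against 10.5% of 14677 genes. The miR-203 string was in 3 (3.61%), against 14.5%, and the miR-708 string in 4 (4.82%), against 13.2%. The members with a match are Rpl31, Rps15a and Rps20 for miR-182, Rpl15, Rpl22l1 and Rpl39l for miR-203, and Rpl30, Rplp0, Rps15a and Rps24 for miR-708. The 4 sites printed here, with the match in capitals, lie in the members called with the matching inhibitor (Rpl31 and Rps20) and in examples for the other two microRNAs.
Rpl31, miR-182 match: ccagccatctTTGCCAAccagtagctc
Rps20, miR-182 match: aagccatttgTTGCCAAtcctaacagc
Rpl15, miR-203 match: tggatgttgaCATTTCAcaaaggccat
Rplp0, miR-708 match: ctaaaattaaAGCTCCTagtgtttttg
The Rps20 match lies at base 3033 of an annotated UTR of 3167 bases, far beyond the usual end of such messages. Those of Rpl31, Rpl15 and Rplp0 lie at base 469 of 578, 880 of 1188 and 170 of 283. All 4 lie beyond the members' median UTR of 87 bases. Whether the messages of these cultures reach the matches was not tested. Rpl31 and Rps20 rose with the miR-182 inhibitor, at 116 against 84.9 FPKM in control and at 674 against 491 FPKM in control. Rpl15 had 108 FPKM with the miR-203 inhibitor, against 99.4 FPKM in control, and Rplp0 had 598 FPKM with the miR-708 inhibitor, against 477 FPKM in control; neither was called. Of the called members, 16 of 18, 6 of 6 and 19 of 19 had no match to the seed of the microRNA inhibited.

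Fau and Gnb2l1 stood above control by similar amounts and were not called. Gnb2l1, a scaffold for signalling proteins on the small subunit, had 1192, 1173 and 1154 FPKM with the inhibitors of miR-182, miR-203 and miR-708, against 965.5 FPKM in control. Of all tested genes, 8.4%, 4.72% and 4.51% were called higher, beside which the counts of the following short lists are to be read. Among 8 elongation factors and related genes, 2, 0 and 1 rose, with medians of 0.32, 0.27 and 0.35. Eef1d, which recharges eEF1A, had 112, 100.1 and 119 FPKM, against 76.2 FPKM in control, and rose with the inhibitors of miR-182 and miR-708 (q = 0.00176 each in the authors' deposited tables). Eif5a, which helps stalled ribosomes along, rose with the miR-182 inhibitor (q = 0.0388, authors' deposited table). Of 7 other TOP messages, 2, 1 and 1 rose; the RNA-binding protein Hnrnpa1 rose with each inhibitor, with 76.6, 61.4 and 69.7 FPKM, against 47.0 FPKM in control, and the histone chaperone Nap1l1 rose with the miR-182 inhibitor.

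The initiation factors load the small subunit onto the message. Of 34, 1, 0 and 1 rose and 0 fell, with medians of 0.056 (miR-182), 0.053 (miR-203) and 0.12 (miR-708), against -0.014, -0.012 and -0.019 for all genes. Eif3b was the called gene, with 72.1, 60.6 and 65.0 FPKM, against 50.4 FPKM in control. Mitochondrial ribosomal proteins, which belong to a separate ribosome, did not share the members' median. Of 76, 0 rose and 2, 0 and 0 fell, with medians of -0.058, -0.011 and 0.024. Both lists are to be read beside the 8.4%, 4.72% and 4.51% of all tested genes called higher and 6.23%, 2.51% and 3.05% called lower.

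Genes of ribosome assembly were called in small numbers, to be read beside the 8.4%, 4.72% and 4.51% of all tested genes called higher. Of 15 genes of RNA polymerase I and its factors, which transcribe ribosomal RNA, 3, 0 and 1 rose with the inhibitors of miR-182, miR-203 and miR-708, and Cd3eap, a subunit, had 6.80, 5.42 and 6.44 FPKM, against 4.04 FPKM in control. Polr1a and Polr1b, the 2 largest subunits, rose with the miR-182 inhibitor. Of 30 genes of small-subunit processing and the box C/D snoRNPs, 3, 1 and 2 rose. The methyltransferase Fbl (fibrillarin) rose in each comparison, with 21.9, 19.9 and 19.9 FPKM, against 14.8 FPKM in control, and its partner Nop58 rose with the inhibitors of miR-182 and miR-708, while Bms1, a GTPase of small-subunit assembly, rose with that of miR-182. Of 5 genes of the box H/ACA snoRNPs, which guide pseudouridylation, Nhp2 rose with the miR-182 inhibitor, at 74.2 FPKM, against 47.1 FPKM in control.

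Of 33 genes of large-subunit assembly, 3, 1 and 4 rose with the inhibitors of miR-182, miR-203 and miR-708. Pelp1, part of a complex that matures the large subunit, rose in each comparison, with 9.27, 7.79 and 8.30 FPKM, against 5.74 FPKM in control. Nucleolin (Ncl) and the helicase Ddx21 rose with the inhibitors of miR-182 and miR-708, and Mrto4 with that of miR-708. Of the 8 listed snoRNA host genes, 5 were in the tables and 0 were called, with medians of -0.13, -0.066 and 0.039. The mTORC1 and S6 kinase list, with 20 entries, had 0 genes that rose and 1, 2 and 0 that fell. Of all tested genes, 6.23%, 2.51% and 3.05% were called lower. Rps6ka1, which encodes the kinase Rsk1, had 7.90, 8.18 and 9.68 FPKM, against 12.4 FPKM in control, and fell with the inhibitors of miR-182 and miR-203; 1 of 2 entries of Larp1b, a relative of Larp1, fell with that of miR-203. None of these lists was tested as a set.

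**Figure D5:**
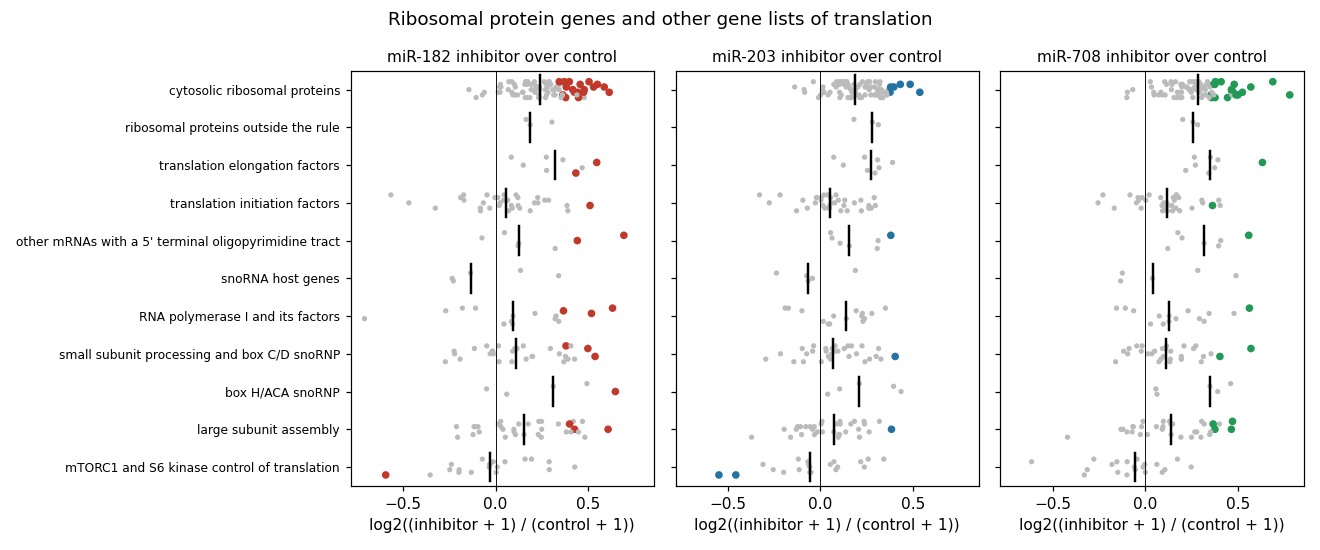
Log2 ratio of each inhibitor over control, in the values as deposited, for the measured genes of the cytosolic ribosome and of 10 other lists of translation and ribosome assembly, 1 point per gene with the list's median as a bar. Coloured points have q below 0.05 in the authors' deposited table. The members' medians are 0.24, 0.19 and 0.29, and under a common FPKM sum 0.19, -0.019 and 0.13. The elongation factors and related genes have 0.32, 0.27 and 0.35.

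Markers of cell state moved in the same comparisons. In bulk RNA, a change in the share of a cell type and a change of RNA per cell cannot be told apart. All 5 of 5 markers of preadipocytes and fibroblasts (Pdgfra, Pdgfrb, Dlk1, Ly6a and Cd34) rose with each inhibitor in the authors' deposited tables, and their summed level was 258, 187 and 181 FPKM with the inhibitors of miR-182, miR-203 and miR-708, against 106 FPKM in control. Cd34 was under 1 FPKM in control, at 0.465 FPKM. Of 4 markers of brown adipocytes, 3, 2 and 2 fell, with sums of 1015, 1465 and 1466 FPKM, against 1939 FPKM in control, and Cidea had 56.2, 157 and 146 FPKM, against 297 FPKM in control. Ucp1, the uncoupling protein that defines the brown fat cell, fell in each comparison, with log2 ratios of -1.57, -0.35 and -0.48. Of 6 general adipocyte markers, 2, 1 and 1 rose and 0 fell, with sums of 37366, 40111 and 45823 FPKM, against 40117 FPKM in control. Fabp4 alone, which was not called, held most of these sums, at 34042, 37047 and 42888 FPKM, against 37475 FPKM in control. The part of the markers of cell state in the values of the ribosomal protein genes was not tested.

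Markers of other cell types were low. The 5 macrophage markers in the tables summed to 4.47, 6.79 and 5.42 FPKM with the inhibitors of miR-182, miR-203 and miR-708, against 7.54 FPKM in control, with Emr1, the gene of F4/80, at 0.0191, 0.0139 and 0.0364 FPKM, against 0.118 FPKM in control. All 4 endothelial markers were under 1 FPKM in every group, with sums of 1.567, 1.383 and 1.497 FPKM, against 0.934 FPKM in control. The skeletal muscle markers in the tables summed to 3.677, 3.497 and 4.299 FPKM, against 6.50 FPKM in control. The 5 markers of smooth muscle and pericytes summed to 26.5, 28.0 and 24.7 FPKM, against 26.7 FPKM in control. Within that sum Cspg4 fell with each inhibitor, to 6.66, 8.41 and 6.98 FPKM. Acta2 had 18.9, 18.9 and 17.0 FPKM and was not called. The muscle marker Des fell with each inhibitor, and the macrophage marker Lyz2 with that of miR-182. Cdh5 and Myh11 rose with the miR-182 inhibitor and Pecam1 with that of miR-708, all at under 1 FPKM.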

How the data were processed

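Directional RNA-seq libraries were made from total RNA, per the labels' protocols. TopHat2 2.0.9, Cuffdiff 2.1.1 and the build mm10 are listed in the submitters' processing notes; settings, gene models and whether counting used strand are not given in the sources used. Each of 3 deposited tables holds FPKM, 1 value per group, beside the log2 ratio, p-value and q-value that the authors computed per gene. No counts or per-sample values were used, so no depth, interval or test of replicates could be computed. Genes with p and q of exactly 1 in the deposited tables were taken as not tested.

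Ratios were put on the scale log2((inhibitor + 1)/(control + 1)); the pseudocount of 1 FPKM understates changes of low genes; medians cover tested genes at 1 FPKM or more in either group. The authors' calls at q below 0.05 were counted over members and over all tested genes. Scripts used Python 3.11.15, pandas 2.3.3 and numpy 2.4.6 and were tested on simulated data. Gene models came from GENCODE M21 (1 transcript per gene, by APPRIS, CCDS and support level), promoters and microRNAs from RefSeq.

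Genes were named by rule: members called in any table; the 3 of highest mean FPKM in each subunit; paralogue pairs; stalk proteins; the 3 highest and 3 lowest log2 ratios per comparison; landmark members; ribosomal proteins outside the name rule; and called genes of the other lists. Some genes that the rule names are not reported here. Rps29 was named after its values were seen. Rpl10l had no entry under that name. Members, lists and rules were chosen with earlier results of these data known.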

Additional observations from a re-analysis of the deposited data

How the results depend on the processing

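Of 69 alternatives over 9 results, 59 kept direction and size, 9 moved and 1 reversed. At q below 0.01 in the authors' deposited tables, 11, 2 and 11 members were higher with the inhibitors of miR-182, miR-203 and miR-708. That compares with 6.28%, 2.87% and 2.89% of all tested genes, and 2 of 85 members with the miR-203 inhibitor lies below its share. At unadjusted p below 0.05, 39, 27 and 48 members were higher, against 14.3%, 9.84% and 9.97% of all tested genes. Restricted to members alone in their locus, where fewer are counted, 9 of 49 rose with the inhibitor of miR-182 and 9 of 49 with that of miR-708. Among all tested genes, 8.4% and 4.51% were called higher in these comparisons. Rescaling each column to a common FPKM sum (TPM) gave a median log2 ratio of -0.019 with the miR-203 inhibitor, a reversal, and of 0.13 with the miR-708 inhibitor; the columns' sums, given above, set this shift. The count of members called lower was 0 under every alternative run. Only Cuffdiff p below 0.05 without adjustment could have raised it, because the others are stricter or drop members. Those others had a fixed outcome, although they are counted among the 59. Leaving out the entry named Rpl24, chosen after seeing the data, left the counts of calls as they were and gave medians of 0.25, 0.19 and 0.29. No paired analysis was possible because the tables hold 1 pooled value per group, and for the same reason no replicate could be left out. The depth per sample is unknown, so its limits cannot be given.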
